A study of Homo sapiens with 10 samples.

Results

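The primary cilium is built and maintained by a set of protein machines whose transcripts were followed here in PANC-1, an established human cell line derived from a pancreatic carcinoma. The set holds 54 genes, a small fraction of the 20263 genes in the deposited table: 7 of the intraflagellar transport complex IFT-A, 17 of IFT-B, 9 of the BBSome with its GTPase, 6 ciliary motor subunits, 13 transition zone genes, and ARL3 and OFD1. The genes were taken from cilium biology by name and were chosen by, among other things, their measured LY against DMSO differences in these same libraries, which were known when the set was drawn up. Their counts and fold changes are therefore a description of these libraries and no independent evidence for the set. All 54 were in the table, 4 of them under another name (IFT56 as TTC26, IFT70A as TTC30A, IFT70B as TTC30B, and HSPB11 also known as IFT25). All 54 were among the 11663 genes that were tested, which required a TPM of 1 or more in 5 or more of the 10 libraries. Of these, 47 reached that level in all 10 libraries, whereas IFT70A, IFT70B and TCTN2 reached it in no LY library and passed through the controls.

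Cells had received LY (lycorine, a plant alkaloid known to inhibit protein synthesis) at 20 µM or the vehicle DMSO, and RNA was taken after 24 h. The labels give 5 libraries per group, whereas the series text speaks of 4 per group. The table's columns are LY-1 to LY-5 and NC-1 to NC-5, the latter being the DMSO controls, and values below follow that column order. The labels give no genotype or agent other than these. Pairs of values written as 1 against another are LY and DMSO means in TPM ± SD (n = 5 each), differences are LY minus DMSO on the log2(TPM + 1) scale ± SE of the limma fit, and gene positions are on hg38 from GENCODE release 29. Library depth is unknown, since TPM keeps no read totals. All libraries came from 1 cell line grown without any stated induction of cilia, and neither cilia nor proteins were measured. Fewer ciliated cells and less RNA per cell cannot be told apart in such bulk libraries. Whether libraries of a group were separate cultures is not stated, so p-values measure only the spread between these libraries.

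Intraflagellar transport carries cargo along the microtubules of the cilium. IFT-B trains moved by kinesin run toward the tip, and IFT-A with the dynein-2 motor brings material back. The BBSome is an adaptor that rides on these trains and takes membrane proteins out of the cilium, and the transition zone is the gate at its base. In most epithelial cells a cilium forms when division stops, and Hedgehog signalling in vertebrates runs through it.

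Transcription factors of the RFX family bind the X-box, an inverted repeat found near the start of many cilium genes, so the promoters of the members were searched for it. RefSeq promoters (GRCh38.p14, 250 bases before to 50 after the start) were given for 49 of the 54 genes. WDR35, IFT22, BBS9, TMEM67 and TCTN2 had no promoter in that table. The search took both X-box arms on either strand with a spacer of 0 to 3 bases. It matched 9 of the 49 members (18.4%), against 439 of all 27305 genes with a promoter (1.61%) and 195 of the 9442 tested genes with one (2.07%). The 9 matches are shown on the gene's strand, 5′ to 3′, with the matched X-box in capitals and 7 bases on each side, because the promoter sequence had no part in the choice of the genes.
IFT122: catgtacGTTGCCAGGGGTAACgcaggta
IFT57: tccggtgGTCGCCTGGTAACcggtcgt
IFT70A: ttgccctGTTGCCGTGGTAACcgcacgc
IFT70B: ttgctctGTTGCCATAGTAACcgcaccc
BBIP1: tctcaccGTTACCCGGGGCAACagctgag
B9D1: tgggactGTTACCTTGGCTACtggctcc
B9D2: gcctgctGTTGCCCCAGCAACaaccacg
TCTN1: tgtcgcgGTTGCCGGGCAACgcgctgt
TCTN3: actgacgGTTGCCAGGCAACggaggca
The matches lay at chr3:129440212-129440226 for IFT122, chr3:108222415-108222427 for IFT57, chr2:177618727-177618740 for IFT70A and chr2:177552789-177552802 for IFT70B. In the other genes they lay at chr10:110919150-110919164 for BBIP1, chr17:19378093-19378106 for B9D1, chr19:41364144-41364157 for B9D2, chr12:110614129-110614141 for TCTN1 and chr10:95694130-95694142 for TCTN3. Of the 9, 7 were within 20 bases of the RefSeq start, and B9D1 and TCTN3 had theirs at positions -193 and -215 relative to it. GENCODE starts these 2 genes elsewhere: TCTN3 at chr10:95694143, next to its match, and B9D1 at chr17:19378193, upstream of its match. Of the 9 motifs, 5 matched on both strands, and that of B9D1 was found on the strand opposite to the gene. A match is a description of letters, and binding was not measured. X-box matches occurred among members of every call: in 4 of the 17 members with a promoter that were lower with LY, in 1 of the 7 that were higher, and in 4 of the 25 that were not called. By complex the counts were 1 of 6 for IFT-A, 3 of 16 for IFT-B, 1 of 8 for the BBSome, 0 of 6 for the motors and 4 of 11 for the transition zone.

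Across the 54 genes, 21 were lower with LY, 8 were higher and 25 were not called at an adjusted p under 0.05 in limma (Benjamini-Hochberg over all 11663 genes). Among all tested genes 64.6% were called, 24.9% lower and 39.8% higher, so the members had fewer calls in all (53.7%) and more of them lower (38.9% lower and 14.8% higher). In 23 of the 54 members, 42.6%, the LY and DMSO ranges were separate, against 49.4% of tested genes. Of those 23 genes 17 were lower with LY and 6 were higher. A decrease of at least 1 on the log2(TPM + 1) scale was called in 9 of the 54 members and in 1138 of the 11663 tested genes (9.76%). IFT70A, IFT70B and TCTN2 are among these 9 and passed the filter through the controls. An increase of that size was called in 1 of the 54 members, WDR35, and in 1443 of the 11663 tested genes (12.4%). Since the members were drawn up with these differences known, nothing is read from the gaps between these shares.

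The median difference of the 54 genes was -0.28 on the log2(TPM + 1) scale, and that of all tested genes was 0.17. TPM values are shares of a library, and the scaling between libraries moved both: with upper-quartile scaling the median of all tested genes was -0.06 and the members numbered 35 lower and 6 higher, while 36.3% of tested genes were lower and 29.6% higher. With median-ratio scaling the members numbered 32 lower and 8 higher, while 32.2% of tested genes were lower and 34.1% higher. Relative to the median of all tested genes the members stood at -0.45 as deposited and between -0.47 and -0.30 over the 20 alternative settings. In the same terms IFT-B stood at -0.93 (range -1.0 to -0.78), the BBSome at -0.49 (-0.55 to -0.17), the transition zone at -0.40 (-0.45 to -0.25), IFT-A at -0.39 (-0.45 to -0.24) and the motors at -0.29 (-0.34 to -0.14). With upper-quartile scaling, under which 36.3% of tested genes were lower, the lower genes numbered 5 in IFT-A, 12 in IFT-B, 6 in the BBSome, 3 among the motors and 8 in the transition zone. Every complex lay below the typical tested gene in each setting run, and IFT-B lay lowest.

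**Figure D1:**
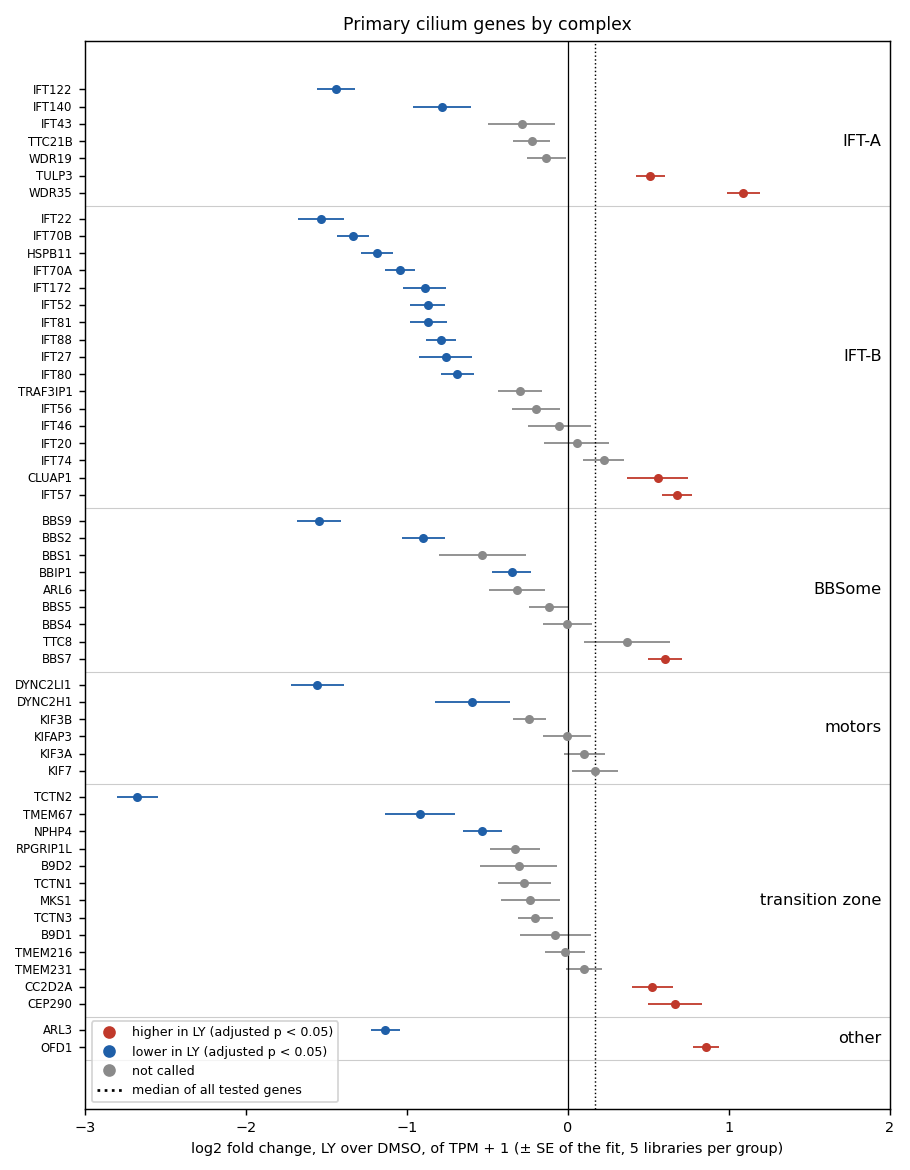
Difference LY minus DMSO on the log2(TPM + 1) scale for each of the 54 genes, arranged by complex. Each point is 1 gene with a bar of ± SE from the limma fit, colour gives the call, and the dotted line is the median of all tested genes. IFT-B holds the largest number of genes to the left of 0 (10 called lower, 2 called higher), and TCTN2 lies farthest to the left at -2.68.

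One control library stood apart. Mitochondrially encoded genes took 37.5% of TPM in NC-2, against 12.2% to 14.1% in the other controls and 6.43% to 14.9% with LY. NC-2 held the lowest control value for 34 of the 54 members and the highest for 7. The same count over all tested genes was not made, but their mean log2(TPM + 1) was low in NC-2 too. It was 4.24 in NC-2 and 4.55 to 4.58 in the other controls, and that of the members was 3.57 and 3.77 to 3.91. Without NC-2 the members numbered 26 lower and 9 higher, while 31.0% of tested genes were lower and 39.5% higher. Its lower values for most members are visible in the plot of complex means. The part of this library's composition in the other values was not tested. Markers of PANC-1 and ductal epithelium (KRT8, KRT18 and VIM among them) summed to 5498 to 6255 TPM with LY and 6472 to 6891 with DMSO. Multiciliated cell markers were low throughout: 10 of the 13 found were below a TPM of 1 in every library, 4 of these at 0, with sums of 2.31 to 5.72 with LY and 5.24 to 9.40 with DMSO. Fibroblast markers, COL1A2 among them, summed to 27.7 to 37.7 TPM with LY and 68.9 to 114.6 with DMSO, and endothelial markers to 2.74 to 3.32 with LY and 0.0988 to 0.535 with DMSO. COL1A2 and CDH5 made up most of these sums, and DCN, LUM, PECAM1 and KDR were at 0 in every library. Endocrine markers were at 0 in every library, and acinar and leukocyte markers summed to less than 1 TPM in each.

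Within IFT-A, the complex that serves return transport and the entry of membrane receptors, the 7 genes did not move as a block: 2 were lower, 2 were higher and 3 were not called. That is 28.6% each way, against 24.9% lower and 39.8% higher among all tested genes. IFT122 and WDR35 encode subunits of the same complex and changed in opposite directions. IFT122 (ENSG00000163913, chr3:129440036-129520507, hg38) measured 13.4, 11.6, 12.6, 14.0 and 12.9 TPM in LY-1 to LY-5 and 35.3, 31.9, 47.1, 31.6 and 39.6 TPM in NC-1 to NC-5. Every LY value was below every control value, the means were 12.9 ± 0.903 TPM with LY and 37.1 ± 6.43 with DMSO (SD, n = 5 each), and the gene fell 2.88-fold, -1.44 ± 0.12 on the log2(TPM + 1) scale (SE). Of the 54 genes 24 overlap another listed gene, IFT122 with MBD4 on the opposite strand among them, and whether strand was used in counting is not given in the sources used here. WDR35 (chr2:19910260-19990131) measured 39.4, 32.3, 41.2, 32.6 and 37.4 TPM with LY and 15.8, 14.5, 17.7, 18.2 and 17.0 with DMSO. All 5 LY libraries lay above all 5 controls, and WDR35 rose 2.20-fold (1.09 ± 0.10).

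These opposite changes show within each library. The ratio of WDR35 to IFT122, a pair picked after the values were seen, was 2.33 to 3.28 (median 2.90) in the LY libraries and 0.375 to 0.576 (median 0.447) in the controls. Because both genes come from the same library, this ratio does not depend on the scaling between libraries. IFT140, another subunit, fell to 3.85 ± 1.19 against 7.26 ± 1.66 TPM (-0.78 ± 0.18) without overlap. TULP3, the adaptor that links IFT-A to membrane receptors bound for the cilium, rose to 62.8 ± 4.68 against 43.8 ± 3.39 TPM (0.51 ± 0.09), also without overlap, and it lies over RHNO1 on the same strand. The other core and peripheral subunits were not called: WDR19 at 9.03 ± 0.672 against 10.1 ± 1.69 TPM, TTC21B at 8.26 ± 1.12 against 9.82 ± 1.08 TPM and IFT43 at 23.7 ± 2.78 against 30.3 ± 8.996 TPM. Their unadjusted 95% intervals on the log2 scale were -0.40 to 0.13, -0.47 to 0.02 and -0.74 to 0.16, all of which leave room for a decrease. Each of these genes was called lower with median-ratio and upper-quartile scaling and without mitochondrially encoded genes. In those settings 32.2% to 36.3% of tested genes were lower.

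IFT-B is the complex of outward transport. Of its 17 genes, 10 were lower (58.8%, against 24.9% of tested genes), 2 higher (11.8%, against 39.8%) and 5 not called. Its median difference was -0.76, and the mean of its members on the log2(TPM + 1) scale was 3.38 to 3.59 in the LY libraries and 3.88 to 4.11 in the controls. These ranges do not overlap even with NC-2, the lowest control, included. The means include IFT70A and IFT70B, which passed the filter through the controls. Summed over the complex, IFT-B transcripts reached 270.6 to 328.6 TPM with LY and 326.6 to 374.9 TPM with DMSO. The sums overlap, and IFT57, the most abundant member, was higher with LY.

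IFT22, a small GTPase of the core, showed the largest decrease of the complex on the log2(TPM + 1) scale. Its values were 9.87, 10.6, 13.8, 9.13 and 12.3 TPM in LY-1 to LY-5 and 33.8, 24.8, 37.2, 38.0 and 37.4 TPM in NC-1 to NC-5 (chr7:101313367-101321823). The lowest control, NC-2, was still well above the highest LY library, and IFT22 fell 3.07-fold (-1.53 ± 0.14). HSPB11, which encodes IFT25 and pairs with IFT27 in a module needed for Hedgehog signalling rather than for building the cilium, measured 19.8, 23.7, 27.2, 20.6 and 22.1 TPM with LY and 49.6, 53.0, 51.7, 52.5 and 56.5 with DMSO (chr1:53916574-53945929). The groups were far apart, with means of 22.7 ± 2.96 TPM with LY and 52.6 ± 2.53 with DMSO, and HSPB11 fell 2.32-fold (-1.19 ± 0.10). Its partner IFT27 also fell, to 8.31 ± 1.38 against 15.0 ± 3.23 TPM (-0.76 ± 0.16), but its groups overlapped through NC-2, which measured 9.32 TPM against 15.2 to 17.1 in the other controls.

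IFT70A and IFT70B are nearly identical copies of 1 subunit of the IFT-B core, and both fell. IFT70A (chr2:177612992-177618966) measured 0.498, 0.544, 0.486, 0.493 and 0.733 TPM with LY and 2.26, 2.01, 2.50, 2.14 and 2.08 with DMSO. IFT70B (chr2:177548998-177553014) measured 0.269, 0.186, 0.111, 0.258 and 0.311 TPM with LY and 2.04, 2.33, 2.35, 1.67 and 2.11 with DMSO. In neither gene did an LY library reach a TPM of 1, and every control exceeded it, so both passed the filter on low values through the controls. Their differences were -1.04 ± 0.09 and -1.33 ± 0.10 on the log2(TPM + 1) scale, which understates changes at such levels: in TPM the control means were 3.99 and 9.25 times the LY means. The coding sequences of 1998 bases are identical at 1918 positions (96.0%), and 32.2% of the 50-base windows of one occur in the other, so reads may be split between them and the 2 values are uncertain as separate measures. IFT70B also overlaps AGPS on the opposite strand. Both promoters hold an X-box match, printed above, at position 2 relative to the RefSeq start in IFT70A and -6 in IFT70B.

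**Figure D2:**
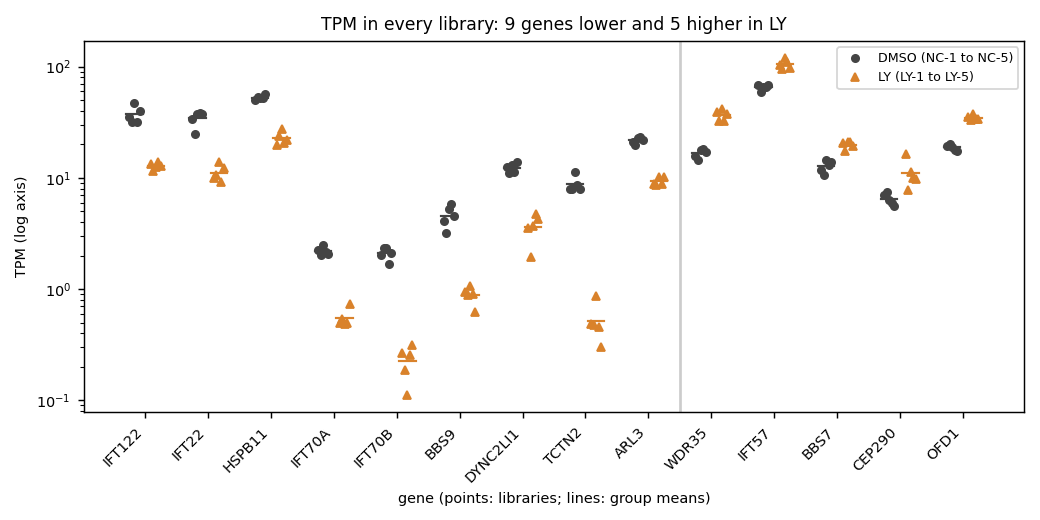
TPM of 14 genes in every library on 1 log axis, with circles for DMSO, triangles for LY and a line at each group's mean. The groups do not overlap for any of the 14: the 9 genes left of the grey line lie lower with LY, and the 5 to its right lie higher.

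Against that direction, IFT57 rose. It encodes a peripheral IFT-B subunit that binds IFT20 and was the most abundant of the 54 genes in both groups. IFT57 (chr3:108160812-108222570) measured 104, 95.9, 120.4, 111 and 96.9 TPM with LY and 68.4, 59.5, 65.4, 66.2 and 68.3 with DMSO. The lowest LY library was above the highest control, and the increase was 1.61-fold (0.68 ± 0.09). CLUAP1, another peripheral subunit, rose to 15.1 ± 4.05 against 9.83 ± 2.22 TPM (0.56 ± 0.19) with overlapping groups, and its call was lost in at least 1 alternative setting.

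The other IFT-B genes that fell did so by less than 1 on the log2(TPM + 1) scale. IFT52, which joins the core to the peripheral part, fell to 24.7 ± 2.54 against 46.1 ± 5.18 TPM, IFT80 to 8.73 ± 1.12 against 14.6 ± 0.608 TPM, IFT88 to 5.21 ± 0.383 against 9.74 ± 0.769 TPM and IFT172 to 4.05 ± 0.686 against 8.39 ± 1.42 TPM, each without overlap between groups. IFT74 and IFT81 form the pair that binds tubulin, and only IFT81 was called. It fell to 7.99 ± 0.929 against 15.4 ± 2.15 TPM (-0.87 ± 0.12), whereas IFT74 stood at 15.7 ± 2.19 against 13.3 ± 2.001 TPM with an interval of -0.06 to 0.50. The ratio of IFT74 to IFT81 within a library, chosen after the values were seen, was 1.74 to 2.12 with LY and 0.702 to 1.0 with DMSO. The other genes without a call were IFT20 at 22.3 ± 7.08 against 21.1 ± 4.36 TPM, IFT46 at 19.9 ± 4.05 against 21.0 ± 5.77 TPM, IFT56 at 8.24 ± 2.14 against 9.46 ± 1.07 TPM and TRAF3IP1, which encodes IFT54, at 12.4 ± 2.35 against 15.4 ± 2.13 TPM.

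**Figure D3:**
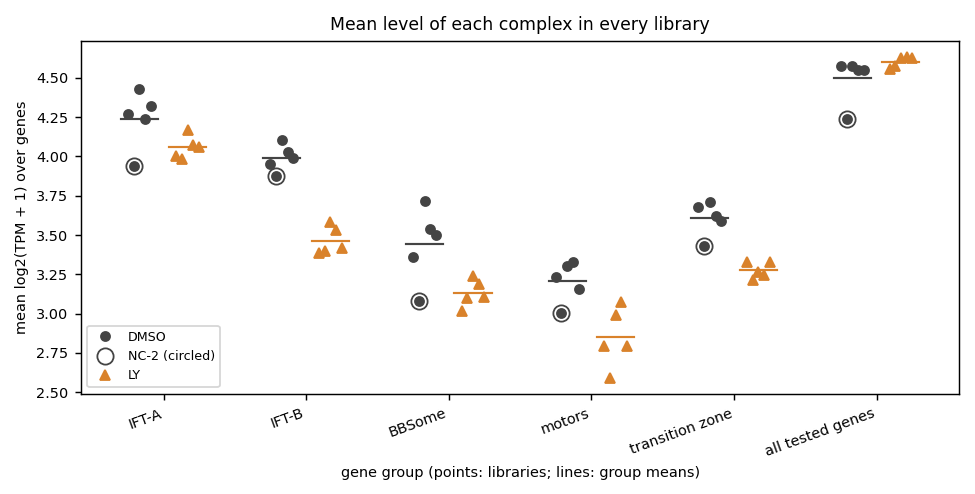
Mean log2(TPM + 1) over the members of each complex in each of the 10 libraries, with circles for DMSO (NC-2 circled), triangles for LY and a line at each group's mean. IFT-B is separated between the groups (3.38 to 3.59 with LY, 3.88 to 4.11 with DMSO). So is the transition zone (3.22 to 3.33 and 3.43 to 3.71), although 8 of its 13 genes were not called. These means include genes that passed the filter through the controls: IFT70A and IFT70B in IFT-B and TCTN2 (-2.68) in the transition zone. Means without those genes were not computed. IFT-A ranges of 3.98 to 4.17 and 3.94 to 4.43 overlap, as do those of the BBSome and the motors.

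BBSome genes split as well, with 3 lower (33.3%, against 24.9% of tested genes), 1 higher (11.1%, against 39.8%) and 5 not called of 9. BBS9, a scaffold subunit, had the largest difference of the group. Its values (chr7:33129244-33606068) were 0.936, 0.884, 1.07, 0.905 and 0.628 TPM with LY and 4.08, 3.20, 5.30, 5.79 and 4.50 with DMSO, so that only LY-3 reached a TPM of 1 under LY. BBS9 fell 5.17-fold (-1.55 ± 0.14), and its groups did not overlap. BBS7, which together with BBS2 and BBS9 forms the core that other subunits join, moved the other way. It (chr4:121824440-121870497) measured 20.4, 17.3, 21.1, 21.1 and 19.4 TPM with LY and 11.9, 10.6, 14.5, 13.1 and 13.9 with DMSO, all LY values being higher, and rose 1.55-fold (0.60 ± 0.11).

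BBS2, the other core subunit, fell to 23.1 ± 3.23 against 44.0 ± 7.06 TPM (-0.90 ± 0.13) without overlap. Within libraries BBS7 was 0.718 to 1.12 times BBS2 with LY and 0.272 to 0.321 times with DMSO, and it was 19.6 to 30.9 times BBS9 with LY and 2.26 to 3.31 times with DMSO. Both ratios were picked after the values were seen. BBIP1, a small subunit needed for assembly, fell to 12.9 ± 1.72 against 16.8 ± 2.33 TPM (-0.35 ± 0.12), but its groups overlapped and the call did not hold in every setting. BBS1, which binds the GTPase that recruits the complex to membranes, stood at 5.23 ± 2.06 against 8.01 ± 3.03 TPM with an interval of -1.12 to 0.05. That GTPase, ARL6, stood at 1.52 ± 0.594 against 2.11 ± 0.531 TPM, and BBS4 and BBS5 at 7.18 ± 2.005 against 7.07 ± 0.790 TPM and 8.09 ± 0.666 against 8.95 ± 1.60 TPM, none of them called. TTC8, which encodes BBS8, was not called at 21.3 ± 4.82 against 17.3 ± 7.45 TPM: its controls ran from 9.78 to 24.9 TPM, a spread wider than the distance between the means.

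Of the 6 motor genes, 2 were lower (33.3%, against 24.9% of tested genes) and 4 were not called. The kinesin genes KIF3A, KIF3B and KIFAP3 of the outward motor were not called, at 12.2 ± 2.15 against 11.2 ± 1.27 TPM, 22.3 ± 2.31 against 26.5 ± 2.55 TPM and 7.69 ± 1.49 against 7.72 ± 1.38 TPM. Their unadjusted 95% intervals were -0.18 to 0.39, -0.46 to -0.02 and -0.34 to 0.32 on the log2 scale. KIF3B was called lower with median-ratio, upper-quartile and quantile scaling and without mitochondrially encoded genes. It was also called lower when LY-3 or NC-2 was left out. KIF7, a kinesin that regulates Hedgehog signalling at the tip, stood at 4.35 ± 0.923 against 3.75 ± 0.677 TPM and was not called either. Both dynein-2 genes of the set were lower with LY, although whether the dynein-2 genes differ from the kinesin genes in response was not tested.

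DYNC2LI1, the light intermediate chain of dynein-2, measured 3.54, 1.93, 3.67, 4.71 and 4.28 TPM with LY and 12.4, 11.1, 13.1, 11.3 and 13.9 with DMSO (chr2:43774039-43810010). The LY and control ranges, 1.93 to 4.71 and 11.1 to 13.9 TPM, were far apart, and DYNC2LI1 fell 3.40-fold (-1.56 ± 0.16). DYNC2H1, the heavy chain, fell to 1.33 ± 0.630 against 2.57 ± 1.28 TPM (-0.59 ± 0.23), with overlapping groups and a call that did not hold in every setting. The 3 other subunits specific to dynein-2 were looked at for this reason. DYNC2I2 fell to 47.7 ± 9.43 against 148 ± 31.4 TPM (-1.60 ± 0.18), DYNLT2B to 11.8 ± 2.72 against 26.1 ± 5.22 TPM (-1.08 ± 0.18) and DYNC2I1 to 15.1 ± 2.84 against 23.5 ± 2.23 TPM (-0.62 ± 0.13), all without overlap. So 5 of 5 dynein-2 subunits were lower, against 24.9% of all tested genes, a grouping made after the values were seen. The DYNC2H1 call was lost by the exact Wilcoxon test, after quantile normalization and without the filter on low values. It was also lost without LY-1, LY-2, LY-3, LY-5, NC-3 or NC-4 in turn. The list holding the 3 other subunits had 4 of 10 tested genes lower and 2 higher. Its member KIF17, higher with LY without overlap, was not tested (1.195 ± 0.161 against 0.228 ± 0.0546 TPM). None of the 4 tested light chains shared with cytoplasmic dynein was called lower. DYNLRB1 rose to 539 ± 73.6 against 304 ± 22.4 TPM without overlap, and DYNLL1 rose to 534 ± 60.0 against 386 ± 72.1 TPM with overlapping groups, a call lost with upper-quartile scaling. DYNLL2 at 37.6 ± 5.80 against 35.6 ± 5.83 TPM and DYNLT1 at 159 ± 24.7 against 168 ± 41.3 TPM were not called.

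Of the 13 transition zone genes, 3 were lower (23.1%, near the 24.9% of tested genes), 2 higher (15.4%, against 39.8%) and 8 not called. TCTN2, a tectonic protein of the gate's membrane complex, had the largest difference of the 54 genes. It (chr12:123671113-123708403) measured 0.487, 0.475, 0.865, 0.456 and 0.305 TPM with LY and 7.98, 7.90, 11.2, 8.59 and 7.91 with DMSO. No LY library reached a TPM of 1, and the lowest control was at 7.90 TPM. TCTN2 fell 16.9-fold in TPM (-2.68 ± 0.13), from place 40 to place 53 of the 54 genes by mean TPM. NC-3 was the highest control, at 11.2 TPM against 7.90 to 8.59 in the other 4.

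The other tectonic genes did not share this. TCTN1 stood at 12.8 ± 2.26 against 15.9 ± 3.94 TPM and TCTN3 at 37.2 ± 3.54 against 43.2 ± 5.94 TPM, neither called, with intervals of -0.63 to 0.09 and -0.44 to 0.03. Within libraries TCTN3 was 38.4 to 140.0 times TCTN2 with LY and 4.76 to 5.27 times with DMSO. TMEM67, a receptor-like protein of the same membrane complex, fell to 1.01 ± 0.589 against 2.79 ± 1.02 TPM (-0.92 ± 0.22), with overlapping groups and a TPM of 1 or more in 1 LY library. NPHP4, of the nephrocystin module, fell to 7.36 ± 0.792 against 11.1 ± 1.71 TPM (-0.53 ± 0.12) without overlap.

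CEP290, the large protein that links the gate's microtubules to its membrane, was higher with LY. CEP290 (chr12:88049014-88142216) measured 16.6, 7.82, 11.3, 9.95 and 9.77 TPM with LY and 7.01, 7.52, 6.27, 5.95 and 5.54 with DMSO. The groups did not overlap, but LY-2 was only slightly above NC-2 and LY-1 was well above the other LY libraries. The rise was 1.72-fold (0.66 ± 0.17), and the call was not kept in every alternative setting. CEP290 overlaps C12orf29 on the opposite strand. CC2D2A, another structural protein of the gate, rose to 4.50 ± 0.486 against 2.85 ± 0.658 TPM (0.52 ± 0.13) with overlapping groups.

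Genes of the gate without a call were RPGRIP1L at 13.3 ± 2.37 against 17.1 ± 3.56 TPM, TMEM231 at 13.8 ± 1.04 against 12.9 ± 1.78 TPM, TMEM216 at 10.5 ± 1.79 against 10.6 ± 1.24 TPM, B9D1 at 27.6 ± 5.14 against 30.1 ± 9.03 TPM, B9D2 at 7.26 ± 1.81 against 9.48 ± 3.01 TPM and MKS1 at 13.8 ± 1.83 against 16.8 ± 4.23 TPM. B9D1, B9D2 and MKS1 encode the B9-domain proteins, which sit together in the complex. Of the 4 transition zone promoters with an X-box match, those of B9D1, B9D2, TCTN1 and TCTN3, none belonged to a called gene, and the promoter of TCTN2 was not in the table searched.

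The remaining pair of genes moved in opposite directions. ARL3 is a GTPase that releases lipid-modified proteins inside the cilium. ARL3 (chr10:102673731-102714407) measured 8.82, 8.68, 10.2, 8.87 and 10.3 TPM with LY and 21.1, 19.9, 22.8, 23.1 and 21.9 with DMSO, and the groups were clearly apart. It fell 2.32-fold (-1.14 ± 0.09). OFD1 is a protein of centrioles and of the satellites around them, whose removal from the satellites accompanies cilium formation. OFD1 (chrX:13734745-13769353) measured 35.5, 33.1, 37.5, 34.1 and 33.6 TPM with LY and 19.2, 20.1, 19.1, 17.8 and 17.6 with DMSO, again without overlap, and rose 1.86-fold (0.86 ± 0.08). OFD1 was 3.27 to 4.03 times ARL3 within the LY libraries and 0.772 to 1.01 times within the controls, a ratio picked after the values were seen.

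These changes rearranged the order of abundance per length. With DMSO the highest means of the 54 belonged to IFT57, HSPB11, IFT52, BBS2, TULP3 and TCTN3, in that order. With LY the first 5 places were held by IFT57, TULP3, TCTN3, WDR35 and OFD1. HSPB11 went from place 2 to 10, IFT122 from 7 to 22, IFT22 from 8 to 26 and ARL3 from 12 to 29, whereas WDR35 went from 20 to 4 and OFD1 from 15 to 5. Places describe group means, and neighbouring places often differ by less than the spread between libraries.

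Other cilium genes were read from lists drawn up by function, with the same earlier results known. Among all tested genes 39.8% were higher and 24.9% lower, and no list was tested against these shares. Genes for delivery to the ciliary membrane had 7 of 12 tested members higher and 2 lower, with a median difference of 0.39. RAB3IP, the exchange factor that activates RAB8 at the base of the cilium, rose to 5.13 ± 0.960 against 1.71 ± 0.668 TPM. UNC119, which carries lipid-modified cargo that ARL3 releases, fell to 10.6 ± 2.42 against 31.1 ± 12.6 TPM (-1.40 ± 0.26). With upper-quartile scaling this list had 4 higher and 4 lower, and without mitochondrially encoded genes 4 and 2.

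Among further transition zone and inversin compartment genes, 6 were higher and 6 lower of 14 tested (42.9% each, against 39.8% and 24.9% of all tested genes). These were 4 and 8 with upper-quartile scaling and 5 and 3 by the exact Wilcoxon test. With 1 library left out 4 to 6 were lower, the 4 without LY-5, NC-1, NC-3, NC-4 or NC-5 in turn. SDCCAG8, a centrosomal protein, rose to 116 ± 12.5 against 52.0 ± 3.51 TPM (1.14 ± 0.10). Basal body and distal appendage genes had 4 higher (33.3%) and 3 lower (25.0%) of 12, near the shares of all tested genes (39.8% and 24.9%). The largest changes in each direction were TALPID3 (listed as KIAA0586) at 42.2 ± 3.86 against 18.8 ± 4.27 TPM and CEP19 at 1.76 ± 0.412 against 7.18 ± 0.443 TPM. Of the 5 genes that fold or regulate the BBSome, BBS10, a chaperonin-like protein, rose to 20.1 ± 2.53 against 8.19 ± 1.10 TPM and CCDC28B fell to 4.72 ± 1.06 against 17.9 ± 4.98 TPM. Cilium disassembly genes had 2 of 6 higher and 2 lower (33.3% each). These were 1 and 4 with upper-quartile scaling and 2 and 1 by the exact Wilcoxon test. Only 1 was lower without LY-1, LY-4, LY-5, NC-1 or NC-4 in turn. Among them KIF2A, a microtubule-depolymerising kinesin, rose to 89.3 ± 8.68 against 54.4 ± 10.4 TPM, and HDAC6, the tubulin deacetylase, fell to 33.9 ± 5.45 against 52.0 ± 8.80 TPM.

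**Figure D4:**
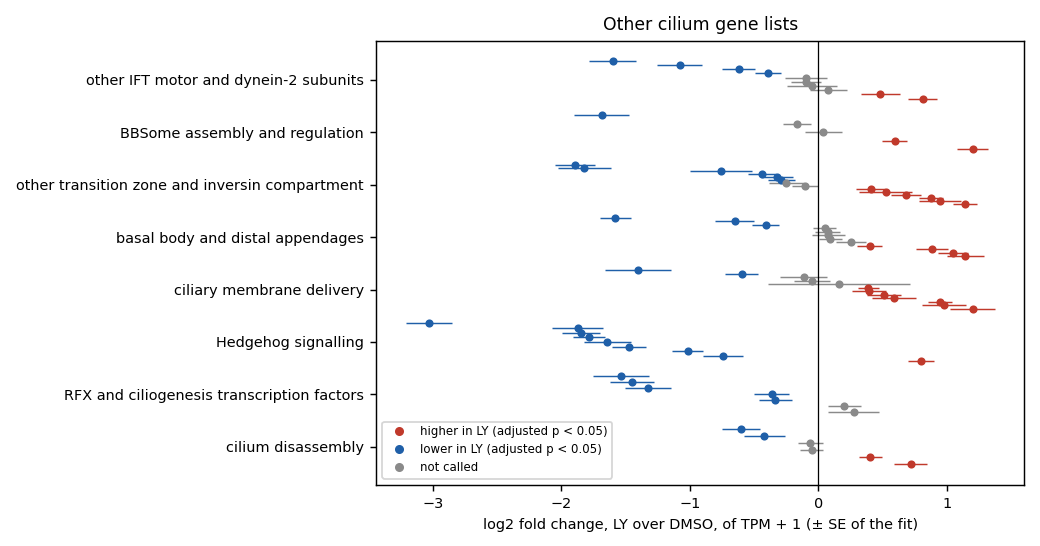
Difference LY minus DMSO on the log2(TPM + 1) scale for tested genes of 8 further cilium lists, 1 point per gene with a bar of ± SE and colour for the call. The tested Hedgehog genes lie lowest (median -1.64), and the list for delivery to the ciliary membrane lies highest (median 0.39).

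Hedgehog signalling uses the cilium in vertebrates. Of its 9 tested genes, 8 were lower (88.9%, against 24.9% of all tested genes), with a median difference of -1.64 over those 9. This count depends on the filter on low values, which 7 of the 16 listed genes did not pass. CDON, at 0.262 to 0.831 TPM with LY and 1.52 to 2.29 with DMSO, passed through the controls, and GLI2 reached a TPM of 1 in only 1 LY library. Among the genes not tested BOC was listed at 0.236 to 0.896 TPM with LY and 0 to 0.0747 with DMSO, and GLI3 at 0.132 to 0.335 and 0.0607 to 0.177. Without the filter 10 of 15 genes were lower and 3 higher, with a median of -0.79, and at a TPM of 5 all 4 genes left were lower. SMO, the membrane protein that transmits the signal, measured 1.82, 2.20, 1.98, 2.29 and 2.34 TPM with LY and 28.7, 14.0, 29.2, 26.3 and 28.3 with DMSO. The groups did not overlap, NC-2 being the lowest control, and SMO fell 11.9-fold (-3.03 ± 0.18). SUFU, the inhibitor that binds the GLI factors, fell to 4.25 ± 0.956 against 13.4 ± 1.29 TPM (-1.47 ± 0.13), and the transcription factor GLI2 to 0.404 ± 0.389 against 3.33 ± 0.881 TPM (-1.64 ± 0.18). PTCH1, the receptor that restrains SMO and is itself a target of the pathway, was the 1 gene higher, at 3.62 ± 0.418 against 1.65 ± 0.209 TPM (0.80 ± 0.10). GLI1, the other usual target, was too low to be tested, with 0.0904 to 0.285 TPM under LY and 0.814 to 1.33 under DMSO.

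The RFX and ciliogenesis factors had 5 of 7 tested genes lower (71.4%, against 24.9% of all tested genes) and none higher. Their median difference was -0.36, and after quantile normalization 4 were lower and 1 higher. Only 3 were lower without LY-3, LY-4, LY-5, NC-1 or NC-3 in turn and by the exact Wilcoxon test, and 4 of 10 without the filter. RFX2, an activator of cilium genes, measured 4.94, 3.04, 2.48, 4.55 and 3.17 TPM with LY and 11.1, 7.43, 13.1, 10.01 and 11.0 with DMSO and fell 2.90-fold (-1.32 ± 0.18). RFX3, another such activator, was not called at 1.98 ± 0.286 against 1.56 ± 0.834 TPM, and RFX5, known for its part in the expression of MHC class II genes, fell to 21.0 ± 3.12 against 65.3 ± 20.7 TPM (-1.54 ± 0.22). FOXJ1, the factor of motile cilia, did not exceed 0.319 TPM in any library, FOXN4 did not exceed 0.369 TPM and GMNC was at 0. In the same list MCIDAS was not called at 7.87 ± 1.66 against 6.60 ± 0.321 TPM. TP73 fell to 1.93 ± 0.611 against 6.94 ± 1.37 TPM. The levels of these factors were not linked to the members by any test, and X-box matches were found in members that fell, rose or were not called.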

How the data were processed

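RNA of PANC-1 cells was sequenced from mRNA libraries (LY 20 µM for 24 h or DMSO, 5 libraries each, per the labels). Values are TPM as deposited, computed by the authors, 1 column per library, each summing to 999932 to 999967. The submitters' processing notes list the builds GRCm38, mm10 and hg38 without roles, and the gene IDs are human. Not given in the sources used here: the aligner, the counting tool and its use of strand. Columns LY-1 to LY-5 were matched to samples by title. Columns NC-1 to NC-5 were assigned to DMSO as a group only. Symbols came from a table of gene names (20148 of 20263 IDs) and GENCODE release 29 (76), leaving 39 unnamed.

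Genes that reached a TPM of 1 in 5 or more of the 10 libraries (11663) were tested on log2(TPM + 1) with limma 3.58.1 in R 4.3.3 (group as the only term, mean-variance trend), after a check on simulated data. Benjamini-Hochberg adjustment covered all tested genes, with calls at an adjusted p under 0.05. The fit adjusts no value for composition. The 54 members, their complexes and the further lists were chosen with earlier results of these data known. Values in every library are given for 14 members: those without overlap between groups and a difference of at least 1, the called gene with the largest rise and fall of each complex, and the IFT70 copies. Each further list gives its called genes with the largest rise and fall. Some genes that these lists count are not reported here by name. Other genes of those lists were named after their values were seen. As alternatives the pseudocount was set to 0.1 or 0.5, the filter was dropped or raised to a TPM of 5, and further fits used median-ratio, upper-quartile and quantile scaling, removal of mitochondrially encoded genes, limma without trend, an exact Wilcoxon rank-sum test, and leaving out each library. Median-ratio scaling without NC-2 was added after seeing the data.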

Additional observations from a re-analysis of the deposited data

Results flagged for a closer look

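A value was marked when its gap to the nearest of the other 4 exceeded 0.71 of the group's range (Dixon's ratio). Chance marks about 1 in 20 groups, and 122 checks gave 6 marks. In control NC-2, IFT27 measured 9.32 TPM (15.2 to 17.1 in the other controls), B9D2 4.25 (10.02 to 11.6) and MKS1 9.34 (17.9 to 19.9). NC-2 is the library with the high mitochondrial share. In control NC-3, TCTN2 measured 11.2 TPM (7.90 to 8.59) and TCTN3 53.5 (38.1 to 41.6). With LY, IFT70A measured 0.733 TPM in LY-5 and 0.487 to 0.544 in the other 4. Causes were not tested.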

How the results depend on the processing

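No direction of a complex's median turned in the 20 alternatives. Of the 8 members higher with LY, 6 kept the call in every alternative that tested them (not CEP290 and CLUAP1), as did 19 of the 21 lower ones (not BBIP1 and DYNC2H1). Higher and lower members numbered 8 and 21 as deposited, 7 and 16 with a filter at a TPM of 5 (46 members tested), 7 and 19 by the exact Wilcoxon test, 9 and 25 after quantile normalization, and 7 to 9 and 19 to 26 when 1 library was left out. Scaling moved medians and counts. Members not called as deposited gained a call in some alternatives, 14 of them with upper-quartile and 11 with median-ratio scaling. KIF3B, TCTN3, TTC21B and IFT43 were among those in both. With median-ratio scaling 32 members were lower, and medians were -0.41 for all members, -0.89 for IFT-B and -0.37 for the transition zone. With upper-quartile scaling 35 were lower, and medians were -0.49 for all members, -0.45 for IFT-A, -0.98 for IFT-B, -0.35 for the motors and -0.46 for the transition zone. After quantile normalization they were -0.39 for all members, -0.12 for the BBSome and -0.35 for the transition zone. Without mitochondrially encoded genes they were -0.43 for all members, -0.37 for IFT-A, -0.91 for IFT-B and -0.38 for the transition zone. A filter at a TPM of 5 left 7 BBSome genes, with a median of -0.12. Median-ratio scaling without NC-2, chosen after seeing the data, gave -0.87 for IFT-B. The medians of all tested genes moved too, from 0.17 as deposited to 0.03 with median-ratio and -0.06 with upper-quartile scaling. No paired analysis was possible because the control columns carry numbers that no label ties to single samples, so the replicate block was not run. TPM values hold no read totals, so what depth limits is unknown, and genes near a TPM of 1, such as IFT70A, IFT70B, BBS9 and TCTN2, are the least certain.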
